A study of Mus musculus with 8 samples.

Results

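Imprinted genes are genes of which mainly one parental copy is transcribed. The 32 members described here were taken by their mouse symbols from the table of raw read counts, which lists 48526 genes, and all 32 symbols were found in it. Of these, 19 are known as paternally expressed in the mouse, 12 as maternally expressed, and *Gnas*, whose transcripts differ in their parental origin, was kept apart. The members lie on 9 chromosomes, with 13 of them on chromosome 7, and 6 are long non-coding RNAs.

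The libraries came from heart fields of wild-type male C57bl6/J embryos at stage E8.5f. Of each of 4 embryos, named L29-3, L43-5, L46-8 and L49-3, the left and the right heart field were sequenced from polyA RNA, so that 4 left libraries were compared with 4 right libraries, paired by embryo. Where 4 values of a side are listed below, they follow this order of embryos. The heart field is the mesoderm that supplies cells to the growing heart tube. Per the methods of the study, the heart and the back were removed in the dissection. Markers of foregut endoderm, of cardiomyocytes and of the neural tube were still found in all 8 libraries. The total count per library ranged from 1147446 to 3520753 and was lowest in both libraries of L49-3. All animals are of one inbred strain without sequence differences between the parental copies, so paternal and maternal transcripts cannot be told apart here. The words paternally and maternally expressed are background knowledge on the mouse, and whether they hold for each member in this tissue was not measured. In bulk tissue, fewer cells of a type and less RNA per cell cannot be told apart either.

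Imprinting is set in the germ line by DNA methylation of control regions, which then keep one parental copy of the neighbouring genes silent. Several paternally expressed genes are known to promote growth of the embryo and several maternally expressed genes to restrain it, and many members are highly expressed in mesoderm of the midgestation embryo. Imprinted genes often lie in clusters, in which a long non-coding RNA from one parental copy accompanies coding genes of the other copy.

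The sequences at the loci on which the results below turn are shown first. RefSeq promoter windows on GRCm38.p6, from 250 bases before to 50 bases after a start site, were counted for 26 members with 40 windows. No window was printed or counted for *Peg10*, *Sgce*, *Dcn*, *Rtl1*, *H19* and *Impact*. *Peg3* and *Usp29*, a pair of paternally expressed neighbours on chromosome 7, are transcribed head to head from start sites 164 bases apart, so that their windows share 263 bases. The *Peg3* window (chr7:6730370-6730669, minus strand) is shown because its counts and those of *Usp29* are compared below, and the bases shared with the *Usp29* window are in capitals.

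Peg3: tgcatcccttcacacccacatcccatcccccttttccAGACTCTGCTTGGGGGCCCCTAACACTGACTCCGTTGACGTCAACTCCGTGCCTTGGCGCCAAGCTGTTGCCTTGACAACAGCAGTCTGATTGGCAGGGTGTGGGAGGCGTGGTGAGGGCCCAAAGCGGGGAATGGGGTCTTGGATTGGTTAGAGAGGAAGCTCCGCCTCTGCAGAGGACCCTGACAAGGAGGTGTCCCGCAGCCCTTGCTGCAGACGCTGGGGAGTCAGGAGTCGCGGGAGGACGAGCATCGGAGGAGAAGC

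The hexamer TGCCGC is the motif that ZFP57, a zinc finger protein that protects imprints, binds when its CpG is methylated. It was searched on both strands, and it occurred in 10 of the 40 member windows, from 9 members, and in 11.6% of all 32817 promoter windows. The hexamer itself holds a CpG. The 10 member windows with a match held from 7 to 45 CpG, beside a median of 7 over all windows, and the shares were not matched for CpG. Windows of one gene can overlap, so the 40 are not independent, and a match is a description of the letters only. The window of *Mest* (chr6:30737800-30738099, plus strand), the member with the highest level among the paternally expressed genes, holds 2 matches, as do 1.53% of all windows when windows with more than 2 are included. The window of *Nap1l5*, a member of low level, holds 2 matches as well. *Plagl1* (chr10:13090582-13090881, plus strand), which had the widest range of embryo means among the tested members, has 1, and *Snrpn* (chr7:60005150-60005449, minus strand), the sole member past the threshold between the sides, has 1 in this one of its windows. Windows with a match were chosen for print, and the matches are in capitals.

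Mest: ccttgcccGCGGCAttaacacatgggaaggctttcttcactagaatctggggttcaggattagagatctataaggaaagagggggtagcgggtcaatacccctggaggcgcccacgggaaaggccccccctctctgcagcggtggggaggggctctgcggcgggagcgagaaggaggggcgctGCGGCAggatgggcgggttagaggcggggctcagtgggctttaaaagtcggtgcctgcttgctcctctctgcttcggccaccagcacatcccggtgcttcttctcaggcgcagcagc

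Plagl1: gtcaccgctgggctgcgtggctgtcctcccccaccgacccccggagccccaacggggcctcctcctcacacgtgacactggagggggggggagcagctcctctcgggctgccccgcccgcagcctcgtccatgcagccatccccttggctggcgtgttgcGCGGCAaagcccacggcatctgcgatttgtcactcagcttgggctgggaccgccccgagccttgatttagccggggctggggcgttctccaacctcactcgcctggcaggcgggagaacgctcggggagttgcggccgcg

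Snrpn: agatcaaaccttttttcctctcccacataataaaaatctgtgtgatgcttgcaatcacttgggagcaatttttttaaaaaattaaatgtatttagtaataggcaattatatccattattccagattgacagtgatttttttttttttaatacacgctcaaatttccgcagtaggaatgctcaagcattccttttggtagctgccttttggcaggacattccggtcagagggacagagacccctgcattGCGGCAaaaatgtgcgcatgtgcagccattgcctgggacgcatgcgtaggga

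The core GCCATNTT, bound by the zinc finger protein YY1, was found on either strand in windows of 3 members (*Ube3a*, *Mkrn3* and *Slc38a4*), and in 6.04% of all windows, and no member window held both motifs. *H19*, the most abundant member, carries in its exonic sequence the precursor of a microRNA with 2 mature arms, shown with the seed (bases 2 to 8) in capitals. They lie on the minus strand at chr7:142577112-142577133 and chr7:142577078-142577099. Libraries of polyA RNA do not measure the mature arms.

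mmu-miR-675-5p: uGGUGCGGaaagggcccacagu

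mmu-miR-675-3p: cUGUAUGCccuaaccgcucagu

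Levels between genes were compared as CPM, which are counts set to the same library total with the TMM factors of edgeR, per kilobase of the union of annotated exons. This union includes long forms, such as 93092 bases for *Kcnq1ot1*, which lowers the value of such genes. The paternally expressed members were led by *Mest*, which encodes a protein of the hydrolase fold family in mesoderm, with 246 ± 31.0 CPM per kb (SD, n = 8 libraries). It was followed by the retrotransposon-derived gene *Peg10* with 142 ± 24.3, the zinc finger gene *Peg3* with 140 ± 31.6 and the small membrane protein gene *Nnat* with 130 ± 25.8 CPM per kb (SD, n = 8). These last 3 differed by less than their spread over libraries. The amino acid transporter gene *Slc38a4* had 36.6 ± 5.06 CPM per kb, and the remaining 14 paternally expressed members were each below the lowest library of *Slc38a4* in their means.

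**Figure D1:**
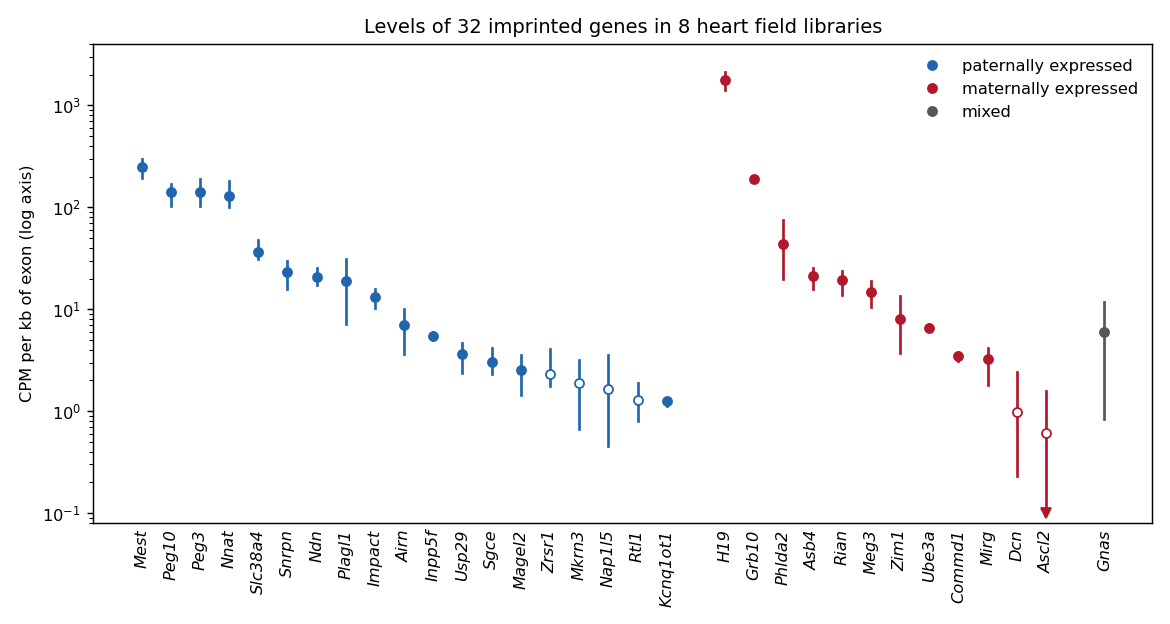
Mean level of each of the 32 imprinted genes in CPM per kb of exon on a log axis, with a vertical line from the lowest to the highest of 8 libraries; open symbols are the 6 members below the filter and the arrowhead marks a library at 0. *H19* stands above all other members at 1767 CPM per kb, and the levels reach down to 0.61 CPM per kb in *Ascl2*.

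Among the maternally expressed members, *H19*, a long non-coding RNA of mesoderm and endoderm, was at 1767 ± 272 CPM per kb (SD, n = 8), above every other member in each library. Its locus is chr7:142575529-142578143 on the minus strand. Its rank among all genes by mean CPM was 4, and it took 0.343% to 0.524% of the counts of a library. The gene for the growth factor receptor-bound adaptor *Grb10* had 190 ± 7.95 CPM per kb, and *Phlda2*, a pleckstrin homology gene that limits placental growth, had 43.5 ± 20.03. *Asb4*, *Rian*, *Meg3* and *Zim1* followed, from 21.2 down to 8.01 CPM per kb. The 4 well-known partners of these genes differed in level. The growth factor gene *Igf2* had 591 ± 107 CPM per kb and the cell cycle inhibitor gene *Cdkn1c* 131 ± 32.5 (SD, n = 8). *Igf2r*, the receptor that clears IGF2, had 89.6 ± 17.3, and the transmembrane ligand gene *Dlk1* was lower, at 18.8 ± 6.35 (SD, n = 8).

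A total of 26 members passed the filter of at least 20 normalized counts in at least 4 libraries, 15 of them paternally and 10 maternally expressed. The 6 others were the splicing factor gene *Zrsr1*, the nucleosome assembly gene *Nap1l5*, the ring finger gene *Mkrn3*, the retrotransposon-derived *Rtl1*, the matrix proteoglycan gene *Dcn* and the trophoblast transcription factor gene *Ascl2*. *Ascl2* had between 0 and 6 reads per library, and *Dcn* had between 2 and 32. The trophoblast and placenta markers were also low, with a summed level from 3.86 to 17.9 CPM in the 8 libraries for 8 genes, of which *Tpbpa* and *Gcm1* had no read. The second heart field markers were all 8 detected, with a summed level from 364 to 573 CPM.

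Between embryos, no tested member passed an adjusted p of 0.05 in the quasi-likelihood F test of edgeR on the embryo terms, beside 0.174% of all 9744 genes tested. The error in this test is the spread between the sides of an embryo, so it asks whether embryos differ by more than that. An unadjusted p of at most 0.05 was found for 10 of 26 members (38.5%), beside 9.99% of all genes tested. By DESeq2 the number was 8, beside 3.93% of all genes tested, and by limma-voom 10, beside 9.82%, with 0 at an adjusted p under 0.05 in each. The count at an adjusted p under 0.05 was 5 of 26 without embryo L46-8, beside 2.42% of all genes then tested, and 1 of 25 without L29-3, beside 0.47%. It was 0 without either of the other embryos. Without L49-3 none of the 26 members had an unadjusted p of at most 0.05, against 4.37% of all genes then tested.

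The lowest embryo was L49-3 for 21 of 26 members, beside 33.3% of all genes tested. These were 12 of 15 paternally and 9 of 10 maternally expressed members. Both libraries of L49-3 were below all 6 others for 10 members (38.5%), beside 9.44% of all genes tested: *Peg3*, *Mest*, *Plagl1*, *Airn*, *Slc38a4*, *Usp29*, *H19*, *Meg3*, *Mirg* and *Asb4*. They were above all 6 others for *Nnat* and *Inpp5f*, or 7.69% of the members, beside 7.83% of all genes tested. The median difference of L49-3 from the mean of the embryos was -0.24 on the log2 scale for the members and 0.00 for all genes tested.

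**Figure D2:**
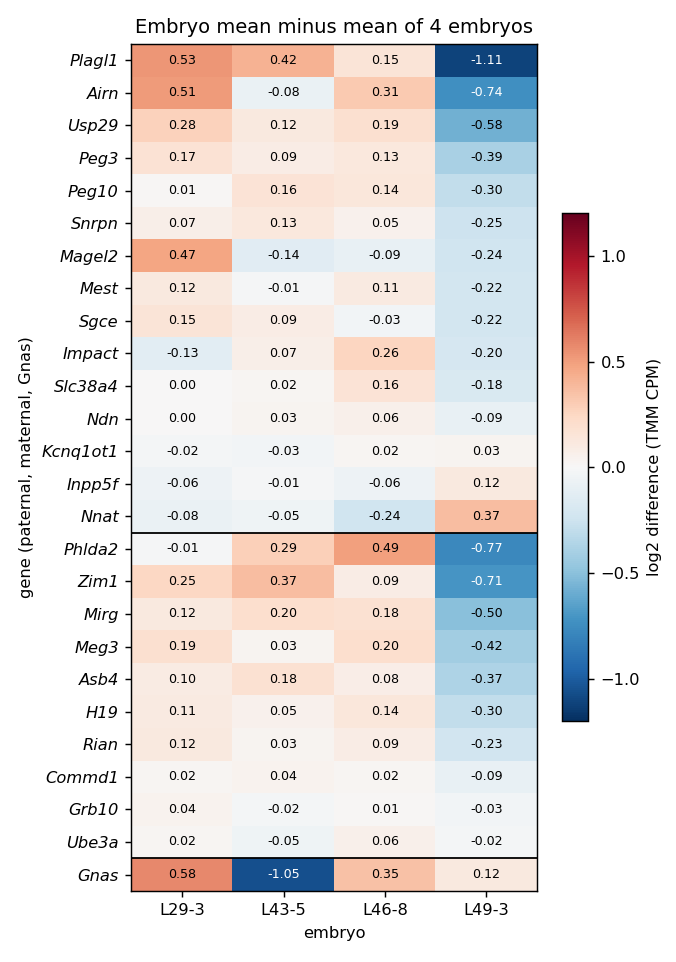
Log2 difference of each embryo (mean of its sides, TMM-normalized CPM with a prior count of 0.5) from the mean of the 4 embryos, for 26 tested members, with paternally expressed members above, maternally expressed members in the middle and *Gnas* at the bottom. The column of L49-3 is lowest for 21 members, from -1.11 in *Plagl1*, and highest for 3.

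Several tissue markers moved with this embryo. The 7 markers of visceral endoderm and yolk sac summed to 5.28 and 5.71 CPM in L49-3 and to between 79.8 and 456 CPM in the 6 other libraries. The 6 markers of the juxta-cardiac and inflow field, including *Tbx5* and *Hand1*, summed to 129 and 157 CPM against 269 to 519, and those of endothelium to 250 and 343 against 383 to 436. The 7 cardiomyocyte markers were at 359 and 1250 CPM in L49-3, against 1090 to 3230, and the 7 neural tube markers were at 437 and 491, against 183 to 356. All markers of these 5 lists were detected. Their part in the difference of L49-3, and that of its low totals, was not tested.

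*Plagl1*, which encodes a zinc finger transcription factor known to act on other imprinted genes, had the widest range of embryo means among the tested members. It was at 284, 340.3, 398 and 105 normalized counts on the left side and 458, 328, 193 and 125 on the right side. Thus both sides of L49-3 were the lowest, while the sides of L29-3 and L46-8 differed in opposite directions. That range was 1.65 on the log2 scale, against 1.62 in *Gnas*, which differed more between the sides, and a median range of 0.46 for the members and 0.32 for all genes tested. The p between embryos was 0.00135 and its adjusted value 0.138 (edgeR). The per-library values of *Plagl1*, *Airn*, *Zim1*, *Gnas* and *Commd1* are given here because of their values.

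The locus of *Peg3* on chromosome 7 also holds *Usp29*, a gene of the ubiquitin protease family, and the maternally expressed zinc finger gene *Zim1*. *Peg3* reached 3559, 4048, 4839 and 2579 normalized counts on the left side and 4233, 3333, 2921 and 2677 on the right side. *Usp29*, with a start site 164 bases away, stood at 147, 155, 161 and 80.5 normalized counts on the left side and 149, 113, 119 and 81.4 on the right side. In both genes L49-3 was below all other libraries, and in L43-5 and L46-8 the left was higher. *Zim1* measured 133, 162, 205 and 57.3 normalized counts on the left side and 136, 134, 71.1 and 83.1 on the right side, so that the right library of L46-8 fell among the values of L49-3. The p between embryos was 0.0209 for *Peg3*, 0.00396 for *Usp29* and 0.0514 for *Zim1*, with adjusted values of 0.365, 0.191 and 0.50.

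*H19* and *Igf2* are neighbours under the control of shared enhancers, and they are expressed from opposite parental copies. *H19* was at 7783, 8670, 9864 and 6634 normalized counts on the left side and 9967, 8204, 8192 and 6548 on the right side. *Igf2* reached 6283, 6320, 8095 and 5010 normalized counts on the left side and 7959, 6208, 6446 and 4906 on the right side. Left over right on the log2 scale was -0.35, 0.08, 0.26 and 0.01 in *H19* and -0.34, 0.03, 0.32 and 0.02 in *Igf2*, in the order of the embryos. The embryo difference from the mean was -0.30 for *H19* and -0.35 for *Igf2* in L49-3. Duplicate reads were removed before counting, which can compress the counts of a short and abundant RNA such as *H19*.

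**Figure D3:**
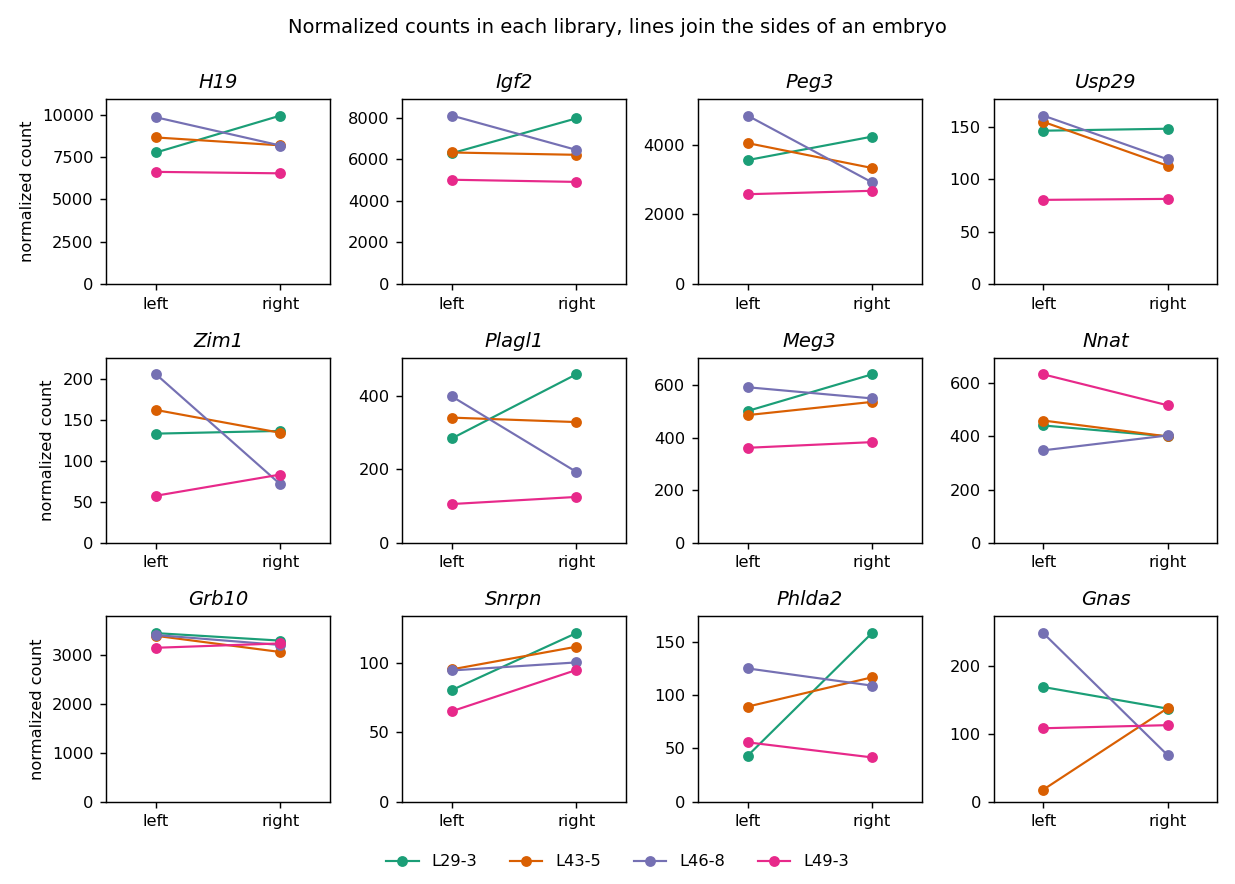
DESeq2-normalized counts (vertical axes from 0) of 11 members and *Igf2* on the left and right side, with a line for each embryo. L49-3 is lowest on both sides in *H19*, *Igf2*, *Peg3*, *Usp29*, *Plagl1* and *Meg3* and highest in *Nnat*, the lines of *Grb10* lie within 3053 and 3439, and the right side is higher in every embryo for *Snrpn*.

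The long non-coding RNAs of the *Dlk1* locus on chromosome 12, *Meg3*, *Rian* and *Mirg*, are transcribed one after the other from the maternal copy. *Meg3* stood at 503, 487, 593 and 362 normalized counts on the left side and 642, 537, 551 and 384 on the right side. It had the lowest p between embryos of all members, at 0.000783 with an adjusted value of 0.115. *Rian*, the host of small nucleolar RNAs, was at 634, 703.5, 769 and 478 on the left side and 819.5, 658, 652 and 668 on the right side. *Mirg*, the host of many microRNAs, was at 38.9, 52.8, 51.3 and 24.8 on the left side and 57.0, 47.0, 46.9 and 36.6 on the right side. The difference of L49-3 from the mean of the embryos was -0.42 in *Meg3*, -0.23 in *Rian* and -0.50 in *Mirg*. The annotation places 14 microRNA genes within *Mirg*, 4 within *Rian* and 2 within *Meg3* on the same strand. *Rtl1*, transcribed from the paternal copy and antisense to 6 microRNA genes, was below the filter at 9.61 to 22.7 normalized counts. *Dlk1*, likewise paternally expressed, measured 124, 234, 316 and 130 normalized counts on the left side and 266, 214, 176 and 151 on the right side.

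*Airn*, the antisense RNA that silences the paternal copy of *Igf2r*, was at 65.7, 49.5, 69.2 and 24.8 normalized counts on the left side and 63.1, 37.4, 45.7 and 28.2 on the right side. Its p between embryos was 0.00489, with an adjusted value of 0.210. *Igf2r* was at 1710, 1801, 1952 and 1093 on the left side and 1817, 1649, 1324 and 1285 on the right side, with a p of 0.00938 and L49-3 below the other libraries. *Airn* overlaps *Igf2r* and shares no exonic base with it in the annotation.

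*Mest* reached 1943, 1802, 2230 and 1694 normalized counts on the left side and 2032, 1832, 1750 and 1449 on the right side. *Peg10* stood at 1534, 2114, 2158 and 1291 normalized counts on the left side and 2064, 1854, 1761 and 1607 on the right side. The neighbour of *Peg10*, the sarcoglycan gene *Sgce*, was at 53.5, 75.6, 68.4 and 46.5 on the left side and 82.9, 54.4, 50.8 and 56.5 on the right side. It was below its mean in L49-3 as well, by -0.22 on the log2 scale against -0.30 for *Peg10*. The p between embryos was 0.022 for *Mest*, 0.0395 for *Peg10* and 0.648 for *Sgce*. *Mest* shares 912 exonic bases with *Copg2* on the opposite strand, and whether the strand was used in counting is not given in the sources used here.

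*Nnat* went the other way. It measured 441, 459.6, 347.5 and 633 normalized counts on the left side and 399.9, 399.7, 403.5 and 517 on the right side. Both libraries of L49-3 were above all others, with a p between embryos of 0.00197 and an adjusted value of 0.158. *Nnat* is known for its expression in neural tissue, and the neural tube markers were highest in L49-3, as given above. A link between them was not tested.

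A few members held nearly the same level in all libraries. *Grb10*, an inhibitor of growth factor signaling, was at 3439, 3384, 3400 and 3140 normalized counts on the left side and 3286, 3053, 3197 and 3229 on the right side. The antisense RNA *Kcnq1ot1* ranged from 197.5 to 236 and the ubiquitin ligase gene *Ube3a* from 237 to 282. The range of embryo means was 0.08 on the log2 scale in *Grb10*, 0.05 in *Kcnq1ot1* and 0.11 in *Ube3a*, the 3 narrowest of the tested members. *Kcnq1ot1* matches 373 other counted genes at 90% identity or more over at least 100 bases, and *Ube3a* shares 1803 exonic bases with its antisense partner *Snhg14*, so both counts may include reads of other genes. *Rian* and *Inpp5f* match 881 and 636 other genes in this way, over at most 184 bases.

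Between the left and the right heart field, 1 member of 26 (3.85%) passed the threshold of the study, which asks for an unadjusted p of at most 0.05 and a change of 1.2-fold or more, beside 3.05% of all 9744 genes tested. No member had an adjusted p under 0.05 (edgeR quasi-likelihood test, embryo as block), beside 0.0103% of all genes, and the lowest adjusted p was 0.987. The count by study threshold was 0 with DESeq2 and 2 with limma-voom, and it was 2 without each embryo in turn. An unadjusted p of at most 0.05, at any fold, was found for 0.667% of all genes tested by DESeq2 and 4.69% by limma-voom. This share was 4.36% by edgeR, and 3.63% to 4.74% by edgeR with an embryo left out. Over the tested members the log2 fold change of left to right lay between -0.48 and 0.43, with a median of 0.03 and a median standard error of 0.123, and over all genes tested the median was 0.00. The members were higher on the left in 14 cases and on the right in 12. The left and right libraries of no tested member stood apart without overlap, beside 2.51% of all genes tested.

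*Snrpn*, which encodes a core protein of spliceosomal particles, was the member past the threshold. It reached 80.3, 95.2, 94.4 and 65.0 normalized counts on the left side and 121, 112, 100.2 and 94.7 on the right side. The right side was higher in 4 of 4 embryos, while the groups overlapped through L43-5 left and L49-3 right. The mean of the left side was 83.7 ± 14.2 and that of the right side 107 ± 11.9 (SD, n = 4 embryos). The fitted log2 change of left to right was -0.34 (standard error 0.130, unadjusted p = 0.0218, adjusted p = 0.987 by edgeR). With 4 pairs, no exact test over sign changes of the pairs can go below 0.125. The unadjusted p was 0.119 without L29-3, 0.0575 without L49-3 and 0.107 by DESeq2, so that the call was lost in each. *Snrpn* shares 589 exonic bases with *Gm38393* on the same strand, and reads there could be assigned to neither or either gene. The melanoma antigen family gene *Ndn* of the same cluster, which restrains the cell cycle, was at 139, 141.5, 177 and 122 normalized counts on the left side and 149, 154, 128 and 150 on the right side. Its fitted log2 change was 0.00 (standard error 0.126). Its neighbour *Magel2* was low and less even, at 28.4, 25.4, 30.9 and 15.5 on the left side and 30.9, 14.9, 12.7 and 19.9 on the right side.

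*Commd1*, a gene of copper handling and the sole further member with one direction in all 4 embryos, had log2 ratios of left to right of 0.15, 0.16, 0.26 and 0.08 (fitted log2 fold change 0.17, standard error 0.183, unadjusted p of 0.362 by edgeR). A common direction in 4 embryos was thus seen in 2 of 26 members, or 7.69%, beside 12.4% of all genes tested. *Commd1* shares 412 exonic bases with *Zrsr1* on the opposite strand, which lies within it.

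**Figure D4:**
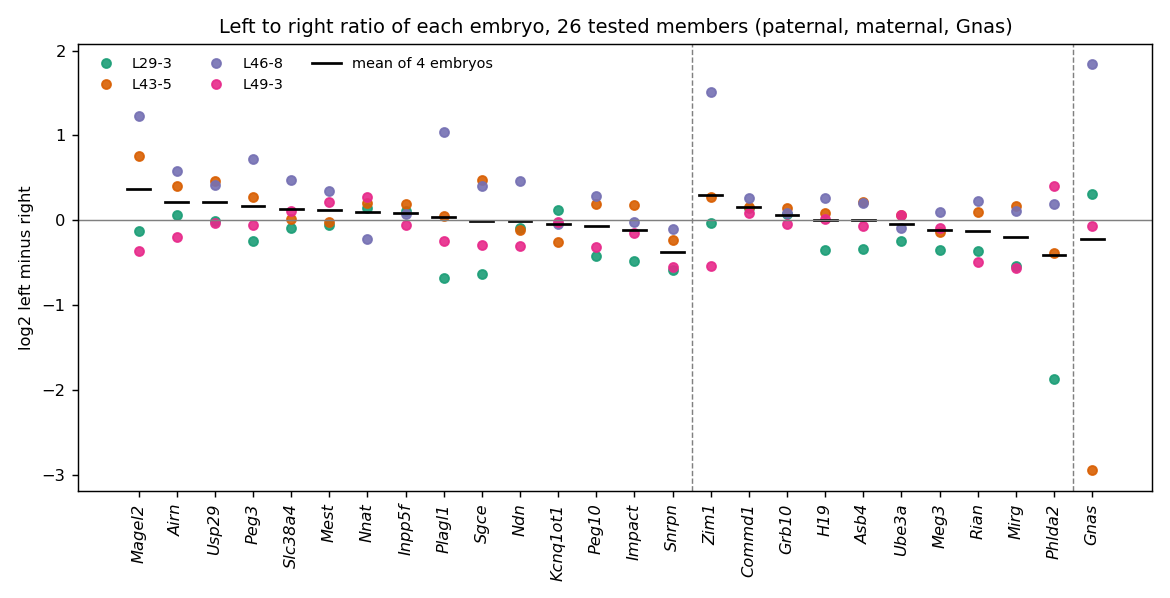
Log2 ratio of left to right (TMM-normalized CPM, prior count 0.5) in each embryo for 26 tested members, with points for embryos and a bar for their mean, in the order paternally expressed, maternally expressed and *Gnas*. For most members the points of L46-8 lie above 0 and those of L29-3 below, and only *Snrpn* and *Commd1* have all 4 points on one side.

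The ratio of left to right differed between embryos for many members together. In L46-8 the left was higher in 21 of 26 members (80.8%), beside 49.8% of all genes tested, with a median log2 ratio of 0.26 against 0.00. In L29-3 the right was higher in 19 of 26 (73.1%), beside 50.6%, with a median of -0.19. The left was higher in 19 of 26 in L43-5, beside 51.1% of all genes tested, with a median of 0.16. The right was higher in 19 of 26 in L49-3, beside 50.6%, with a median of -0.07. Among the 21 other imprinted genes tested, described below, the left was higher in 47.6% in L46-8 and 71.4% in L43-5. The right was higher in 57.1% of these 21 in L29-3 and 42.9% in L49-3. The log2 ratios in L29-3 and L46-8 were -0.68 and 1.04 in *Plagl1*, -0.24 and 0.72 in *Peg3*, -0.03 and 1.51 in *Zim1*, and -0.42 and 0.29 in *Peg10*. The 6 juxta-cardiac and inflow markers summed to 305, 366, 519 and 157 CPM on the left side and to 460, 358, 269 and 129 CPM on the right side. Those of visceral endoderm and yolk sac summed in L29-3 to 79.8 CPM for the left library and 456 CPM for the right library, but in L46-8 to 259 CPM for the left and 293 CPM for the right. The part of these tissues, or of the plane of bisection, in the ratios was not tested.

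The average of several members moved with single embryos. *Phlda2* stood at 42.97, 89.3, 125 and 55.7 normalized counts on the left side and 158.5, 117, 109 and 41.6 on the right side. The fitted change of -0.48 on the log2 scale, with a standard error of 0.271 and an unadjusted p of 0.103 by edgeR, was the most negative of the tested members. It was -0.75 with a p of 0.0245 without L46-8, and -0.02 with a p of 0.904 without L29-3. The log2 fold change of *Zim1* was 0.37 with an unadjusted p of 0.127, and it was 0.53 with a p of 0.0436 without L49-3 and 0.01 with a p of 0.947 without L46-8. That of *Usp29* was 0.25 with a p of 0.0671. It was 0.34 with a p of 0.0352 without L29-3 and 0.29 with a p of 0.046 without L49-3, but 0.19 with a p of 0.217 without L46-8 and 0.15 with a p of 0.324 without L43-5. That of *Peg3* was 0.17 with a p of 0.167, and 0.32 with a p of 0.019 without L29-3 and -0.01 without L46-8. *Magel2* had the most positive value, 0.43 (standard error 0.296, unadjusted p of 0.171), from at most 30.9 normalized counts in a library, and it was 0.28 without L43-5 and 0.19 (p of 0.551) without L46-8. The fitted change was 0.00 for *H19* (standard error 0.0802) and 0.06 for *Grb10* (standard error 0.0549).

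*Gnas*, which encodes a stimulatory G protein subunit and imprinted relatives of it, scattered most. It measured 169, 17.6, 249 and 108 normalized counts on the left side and 137, 138, 68.5 and 113 on the right side. The left library of L43-5, the second deepest of the 8, held 27 reads of *Gnas*. Its log2 ratios therefore ran from -2.95 to 1.84, and the log2 fold change was -0.07 with a standard error of 0.484, the largest of the tested members. It turned to 0.73 with an unadjusted p of 0.0198 without L43-5, and was -0.74 with a p of 0.102 without L46-8. *Gnas* shares 988 exonic bases with its antisense partner *Nespas* on the opposite strand.

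Some further tested members had small fitted changes between the sides. *Impact*, a regulator of translation, ranged from 98.9 to 153.5 normalized counts, *Asb4*, a gene of an ubiquitin ligase adaptor, from 118 to 191, *Slc38a4* from 248 to 387 and the phosphatase gene *Inpp5f* from 79.2 to 94.7. Their log2 fold changes of left to right were -0.09, 0.02, 0.13 and 0.09, with p-values between 0.208 and 0.873.

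The levels were also summed over the members of each parental origin. The 19 paternally expressed members summed to 791, 852, 932 and 721 CPM per kb on the left side and 886, 785, 742 and 701 on the right side. The 12 maternally expressed members summed to 1972, 2185, 2462 and 1686 CPM per kb on the left side and 2494, 2072, 2075 and 1686 on the right side. Both sums were higher on the right in L29-3 and on the left in L43-5 and L46-8. In L49-3 the paternally expressed sum had a log2 ratio of 0.04 and the maternally expressed sum one of 0.00, although the right was higher there in 19 of the 26 tested members. The second sum is mostly *H19*. The mean log2 ratio of left to right was 0.08 ± 0.204 for the paternally expressed sum and 0.00 ± 0.246 for the maternally expressed sum (SD, n = 4 embryos), so that each was smaller than its spread between embryos. All 32 members together took 0.974% to 1.43% of the counts of a library.

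**Figure D5:**
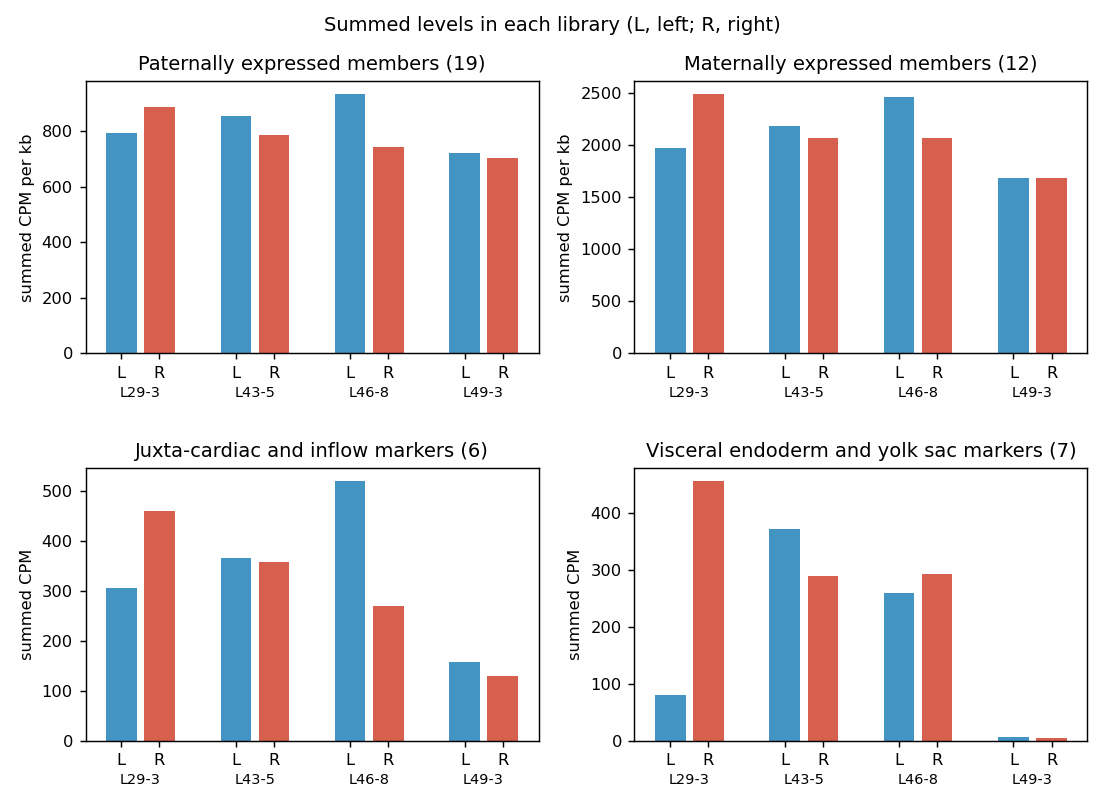
Summed CPM per kb of the 19 paternally and the 12 maternally expressed members (upper panels) and summed CPM of 6 juxta-cardiac and inflow markers and 7 visceral endoderm and yolk sac markers (lower panels), in each library, blue for left and red for right. In L29-3 the right bar and in L46-8 the left bar is higher in the first 3 panels, and the marker bars of L49-3 are the lowest.

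Of 43 other genes described as imprinted in the mouse, 21 were tested. None passed the threshold of the study between the sides or an adjusted p of 0.05 between embryos, and 2 had an unadjusted p of at most 0.05 between embryos, *Igf2* with a p of 0.00224 and *Igf2r*. DESeq2 and limma-voom also gave 0 in both comparisons. The share at this unadjusted p was 9.52%, beside 9.99% of all genes tested. The lowest embryo was L49-3 for 9 of the 21 (42.9%), beside 33.3% of all genes tested. The median difference of L49-3 from the mean of the embryos was 0.00 for this list. *Cdkn1c*, which like *Phlda2* lies in the *Kcnq1ot1* domain, was at 567.5, 459, 500.5 and 263 normalized counts on the left side and 671, 509.6, 440.3 and 621.5 on the right side. The fitted change was -0.32 on the log2 scale, with a standard error of 0.158, an unadjusted p of 0.0678 and the widest gap in L49-3. Without L49-3 the change was -0.08, and without L46-8 it was -0.47 with a p of 0.00997. *Kcnq1* itself had 10 reads in all libraries.

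Genes that keep or read imprints were expressed throughout. Of 20 such genes, 18 were tested, and *Dppa3* and *Dnmt3l*, which act in germ cells and the early embryo, had no read. *Trim28*, the corepressor recruited by ZFP57, had 232 ± 12.2 CPM per kb, the maintenance methyltransferase gene *Dnmt1* 66.1 ± 3.33 and *Zfp57* 9.32 ± 1.79 (SD, n = 8). None of the 18 passed the threshold of the study between the sides or an adjusted p of 0.05 between embryos by edgeR, DESeq2 or limma-voom, while an unadjusted p of at most 0.05 was found for *Dnmt3b* and *Hells* between embryos (11.1%, beside 9.99% of all genes tested). *Dnmt3b*, a de novo methyltransferase gene, reached 308, 345, 382 and 505 normalized counts on the left side and 340.4, 393, 443 and 472 on the right side. It was thus highest in L49-3, with a p between embryos of 0.00106 and an adjusted value of 0.122. By contrast *Zfp57* had its lowest values, 54.2 and 46.5, in L49-3, with a p of 0.0767. Both libraries of L49-3 were below all 6 others for 3 of the 18 (16.7%), beside 9.44% of all genes tested. They were above all 6 others for 2 (11.1%), beside 7.83%. Between the sides, *Arid4b* (log2 fold change 0.24, unadjusted p of 0.0455) and *Dnmt3a* (0.18, p of 0.0352) differed by less than 1.2-fold, while without L43-5 the value of *Arid4b* was 0.29 with a p of 0.0465.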

How the data were processed

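PolyA RNA of the left and right heart field of 4 embryos was sequenced as 8 libraries. Per the methods of the study and the labels, the authors aligned paired reads to GRCm38 with HISAT2, removed duplicate reads and counted genes with featureCounts of Subread; versions and the use of strand are not given in the sources used here. The values deposited by the authors are raw counts. Embryo and side were taken from the labels. Both sides of an embryo come from the same animal, and the correlation of their deviations from the side means was 0.165, 0.19, -0.0165 and 0.437 in the 4 embryos, against -0.389 to 0.255 between embryos.

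Genes were named with GENCODE vM21 (48144 identifiers with a symbol, 382 without). edgeR 4.0.16 in R 4.3.3 (TMM, quasi-likelihood test, side and embryo as terms) was run on the 9744 genes with at least 20 DESeq2-normalized counts in at least 4 libraries, with Benjamini-Hochberg adjustment over all of them. DESeq2 1.42.0 and limma-voom (limma 3.58.1) were alternatives. Other alternatives were other scalings, no filter, no block, no side term and each embryo left out. The edgeR steps were tested on simulated data. Ratios of one embryo are from TMM-scaled CPM and a prior count of 0.5, and normalized counts in the text are DESeq2-normalized. A count of 0 allows up to 3 counts, or 2.61 CPM in the smallest library, for counting error only. No pair of libraries agreed within sampling noise (smallest chi-square per degree of freedom 2.04).

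The members, gene lists and marker lists were chosen with earlier results of these data known. All 32 members are accounted for. Values per library are given for members past the threshold between sides, for the 4 highest paternally and 3 highest maternally expressed members, for the pairs and clusters of neighbours and for the partners *Igf2*, *Igf2r*, *Dlk1* and *Cdkn1c*. From the other lists, genes past the threshold between sides and up to 3 of lowest adjusted p between embryos are named; any other gene was chosen after its values were seen.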

Additional observations from a re-analysis of the deposited data

Results flagged for a closer look

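Of 52 sets of 4 libraries (26 tested members on each side), 3 had a library whose gap to its nearest neighbour exceeded the 95% critical value of Dixon for 4 values. Chance flags about 1 in 20 such sets. *Nnat* had 517 normalized counts in the right library of L49-3, against 400 to 404 in the other right libraries. *Inpp5f* had 94.7 in the same library, against 79.2 to 80.0 in the others. *Rian* had 820 in the right library of L29-3, against 652 to 668 in the others.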

How the results depend on the processing

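The number of members past the threshold of the study between sides was 1 with edgeR and also without the replicate block. It was 3 without the filter (*Zim1*, *Snrpn* and *Phlda2*), 0 with DESeq2, 2 with limma-voom and 2 in each fit that left out an embryo. Of all genes, 3.53% had an unadjusted p of at most 0.05 at any fold by edgeR without the filter, and 0.667% by DESeq2. *Snrpn* kept the direction in all of these fits. The number of members with an adjusted p under 0.05 between embryos was 0, and it was 12 without the filter, beside 2.69% of all genes then fitted against 0.174% with it, and between 0 and 5 with an embryo left out, with 5 without L46-8 (*Nnat*, *Zim1*, *Peg3*, *Plagl1* and *Meg3*) and 1 without L29-3 (*Plagl1*). Without the filter 23873 genes were fitted. For the other imprinted genes the count was 0 between sides and 0 between embryos, and it was 1 and 4 without the filter and between 0 and 1 and between 0 and 2 with an embryo left out. For the genes that keep imprints both counts were 0, the count between embryos was 2 without the filter, and with an embryo left out the counts lay between 0 and 1. The causes were not tested. Direction turned without L46-8 for *Peg3* (log2 fold change -0.01, against up to 0.32 without another embryo) and *Plagl1* (-0.29, against up to 0.35), and without L29-3 for *Mirg* (0.00, against down to -0.29). *Gnas* (-0.07) turned with limma-voom (0.04), without the replicate block (0.22) and without L43-5 (0.73, against -0.74 without L46-8). Values near 0 turned for *H19* and *Ndn* with library size alone and without the filter (0.01 in each), for *H19* with limma-voom and *Ndn* without the replicate block (0.00 in each), and with an embryo left out, when they lay between -0.09 and 0.12 for *H19*, -0.16 and 0.07 for *Ndn*, -0.22 and 0.03 for *Impact* and -0.07 and 0.14 for *Asb4*. The summed level of the paternally expressed members had a mean log2 ratio between 0.00 and 0.16 with an embryo left out, and that of the maternally expressed members between -0.09 and 0.11. Of the further values for single genes under an alternative, 299 kept the direction and the side of the threshold, 28 came to pass it and 3, all of *Snrpn*, no longer did. Members with few counts, such as *Ascl2*, could not be tested at this depth.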
